A study of Mus musculus with 44 samples.

Results

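The S phase and mitosis genes are 40 genes of the cell cycle, read from the count table by their symbols. All 40 were found among the 46831 genes of the table that were used, and all 40 passed the filter on low counts in every fit. Of these, 15 act in S phase and 25 act in mitosis. The list was drawn from the known roles of the genes, although earlier results of these data were known when it was chosen.

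The study profiled skeletal cells of C57BL/6J mice (strain label C57Bl6) at postnatal day 3 with SLIM-seq, in which RNA pulled down with an antibody against N6-methyladenosine (m6A), the IP, is sequenced beside the unselected input RNA of the same sorted cells. Cells came from the lower limb metaphyses, growth plate included, with marrow and periosteum removed, and were sorted as CD45-, Ter119- and Tie2-negative cells on CD51, Thy1, 6C3, CD105 and CD200. The 8 wild-type (WT) populations were skeletal stem cells (SSC), the progenitors pBCSP and BCSP, and the 5 downstream populations PCP (pro-chondrogenic progenitors), THY, BLSP (B-cell lymphocyte stromal progenitors), 6C3 and HEC, each with 2 IP and 2 input libraries. Another 12 libraries are labelled Mettl3cko, 2 IP and 2 input per population, from SSC, pBCSP and BCSP. Per the study's methods these carry Mettl3 fl/fl with Col2a1-Cre, a Cre driven by a collagen II promoter active in chondrogenic cells, and the WT animals carry Mettl3 fl/fl without Cre. No drug or other agent is labelled for any of the 44 libraries. Per the study, mice of either sex from several litters were used at this age and replicates were biologically independent experiments. The labels tie no library to an animal or litter.

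S phase genes license origins, unwind DNA and supply nucleotides while the genome is copied. The Mcm proteins form the ring-shaped helicase that Cdc6 and Cdt1 load onto origins, Cdc45 and the GINS complex switch it on, and Pcna is the sliding clamp of the DNA polymerases. Mitosis genes act later. Cdk1 with cyclin B drives entry into mitosis, the Aurora and Polo-like kinases, kinesins and kinetochore proteins build the spindle, and Bub1, Bub1b, Ttk and Cdc20 time the separation of the chromosomes. Both groups are transcribed in cycling cells and are kept low in resting cells by DREAM, a repressor complex that binds CHR elements, while E2F factors act at many S phase genes.

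Letters of these elements were searched in the promoters of the members, and 6 promoters are printed. They are the 5 mitosis starts with both CHR and CCAAT letters within 90 bases before the start and the 1 S phase start with E2F letters there, and some hold further matches upstream. RefSeq promoter sequences (GRCm38.p6) were given for 33 members, with 35 starts in all. Within 250 bases before the start and on either strand, CHR letters (TTTGAA or TTCGAA) stood in 31.4% of the 35 member promoters and in 17.1% of 32851 promoters of all genes. CCAAT letters stood in 80% against 33.8%, and E2F letters (TTTCCCGC, TTTCGCGC, TTTGCCGC or TTTGGCGC) in 14.3% against 1.86%. The E2F letters were found at 4 of 13 S phase starts and 1 of 22 mitosis starts, and the CHR letters at 3 of 13 and 8 of 22. All 11 member promoters with CHR letters also held CCAAT, so the pair stood in 31.4% of member promoters, against 6.02% of all promoters. The sequences below end at the base before the start and run 5′ to 3′ on the strand of the gene. Capitals mark the CCAAT letters (ATTGG on the other strand), the CHR letters TTTGAA (with TTCAAA on the other strand) and the E2F letters. These are matches of letters, not measured sites.
Cdk1 (chr10:69352913-69353002, minus strand): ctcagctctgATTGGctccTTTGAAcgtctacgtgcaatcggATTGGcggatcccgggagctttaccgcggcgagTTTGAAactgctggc
Top2a (chr11:99024190-99024279, minus strand): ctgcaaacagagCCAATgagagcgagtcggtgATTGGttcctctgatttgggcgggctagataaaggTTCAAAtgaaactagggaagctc
Cdc20 (chr4:118437344-118437433, minus strand): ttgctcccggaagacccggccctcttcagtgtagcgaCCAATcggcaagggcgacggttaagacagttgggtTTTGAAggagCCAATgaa
Kif11 (chr19:37376292-37376381, plus strand): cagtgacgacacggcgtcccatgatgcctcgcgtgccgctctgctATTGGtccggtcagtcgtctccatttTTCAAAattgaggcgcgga
Prc1 (chr7:80294386-80294475, plus strand): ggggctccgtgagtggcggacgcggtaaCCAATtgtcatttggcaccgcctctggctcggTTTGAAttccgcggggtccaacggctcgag
Mcm6 (chr1:128359706-128359795, minus strand): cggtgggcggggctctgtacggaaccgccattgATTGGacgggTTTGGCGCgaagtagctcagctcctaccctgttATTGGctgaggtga

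The libraries held 16480027 to 44046651 counts each, and the 22 input libraries, on which mRNA levels rest, held 19795666 to 44046651. Levels are given as counts per 1000000 reads (CPM) after TMM scaling over the 22 input libraries. Reads were counted without strand, so reads from exons that overlap another gene cannot be told apart. This touches 10 of the 40 members. For Gins2 67.3% of the exon bases overlap another gene, and for Kif20a 29.3%, so the values of these genes are uncertain, while the share is 1.35% to 12.6% in Mcm7, Ccna2, Prc1, Plk1, Cdc45, Nusap1, Cdc20 and Top2a. Replicates correlated at 0.94 to 0.98 among input and 0.89 to 0.92 among WT IP libraries, and the 6 Mettl3cko IP libraries, which stood apart, are described with their result. Mitochondrial transcripts made 1.56% to 2.92% of counts in WT stem and progenitor IP libraries and 4.53% to 9.10% in downstream ones. In WT input libraries these shares overlapped, with 0.427% to 0.717% and 0.287% to 1.41%. Entries left out for a shared name held 0.0247% to 0.0596% and 0.186% to 0.390% of WT input counts. Whether library preparation differed between these groups was not tested.

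Across the 8 WT populations the members split by the hierarchy. SSCs, pBCSPs and BCSPs held less mRNA of mitosis genes than the downstream populations, and the difference was smaller and less uniform for S phase genes. The summed level of the 25 mitosis genes was 197 and 274 CPM in the SSC libraries, 366 and 289 in pBCSPs and 337 and 266 in BCSPs. It was 711 and 929 CPM in PCPs, 901 and 806 in THY, 667 and 627 in BLSPs, 725 and 611 in 6C3 and 412 and 404 in HEC. Every downstream library was therefore above every stem and progenitor library in this sum, with HEC nearest to them. The summed S phase level was 476 and 428 CPM in SSCs, 572 and 452 in pBCSPs and 525 and 506 in BCSPs, against 525 to 866 CPM in the 10 downstream libraries, so these groups overlapped. In these bulk libraries fewer cells that express a gene and less of its RNA per cell cannot be told apart.

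**Figure D1:**
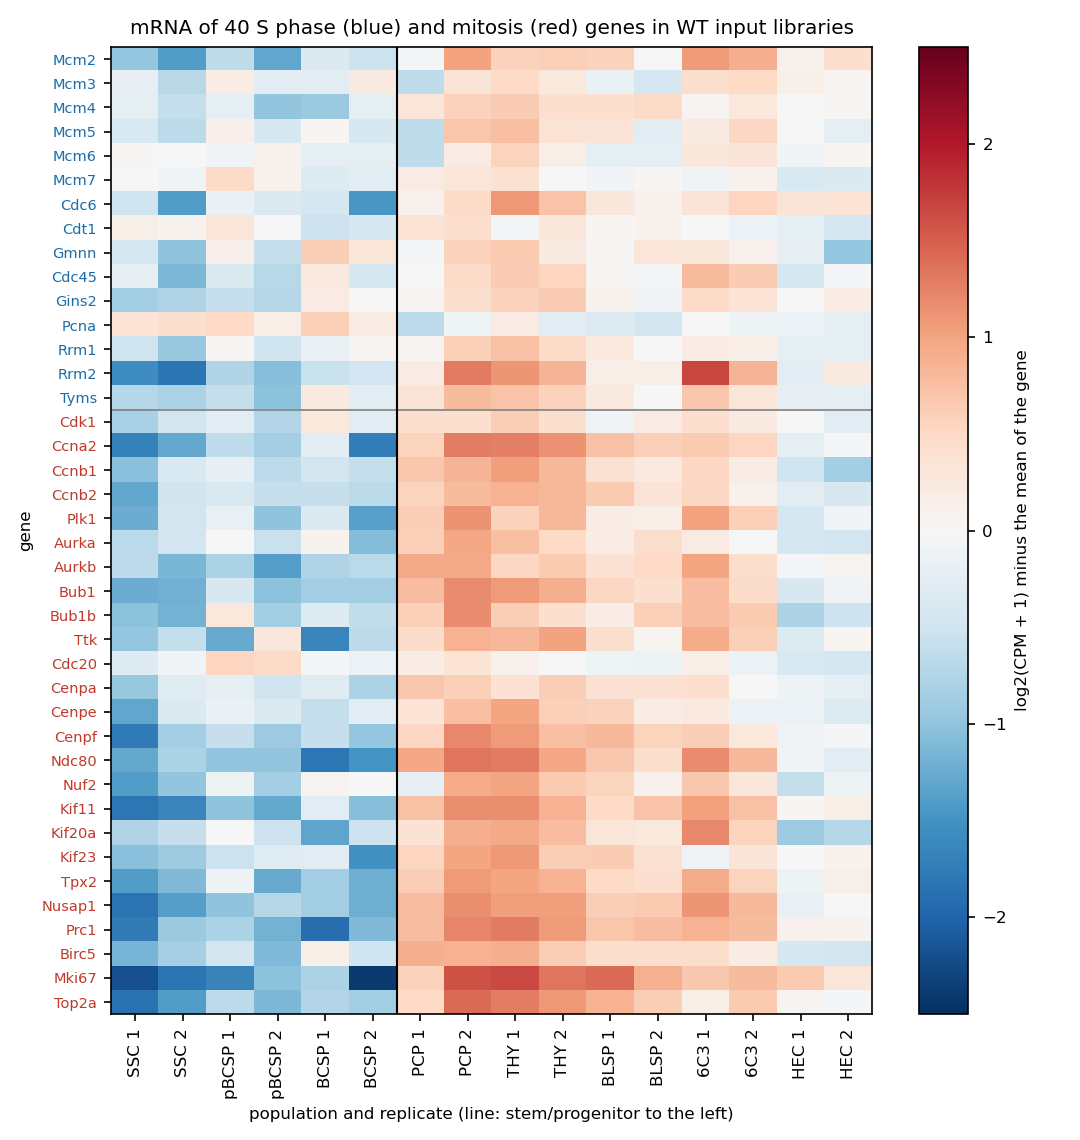
Levels of the 40 genes in the 16 WT input libraries, with genes in rows (S phase names in blue, mitosis names in red) and libraries in columns. Colour is log2(CPM + 1) minus the mean of the gene over the 16 libraries, and the line separates the 6 stem and progenitor libraries from the 10 downstream libraries. Most mitosis genes are below their mean left of the line and above it right of the line, while Pcna runs the other way.

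The mRNA of 35 of the 40 members differed among the 8 populations at an adjusted p under 0.05 (edgeR's quasi-likelihood test, adjusted over all genes), against 40.1% of all tested genes. The 5 that did not pass are Mcm3, Mcm5, Mcm6, Mcm7 and Gmnn, the geminin that blocks Cdt1. Of the 40 members, 23 had their highest mean in THY, 8 in PCP, 5 in 6C3, 2 in pBCSP (Mcm7 and Cdc20) and 2 in BCSP (Gmnn and Pcna). The lowest mean was in SSCs for 28, in BCSPs for 6, in pBCSPs for 3, in HEC for 2 and in BLSPs for 1. The ratio of the highest to the lowest population mean was 15.2 for Mki67, the proliferation marker that coats mitotic chromosomes, 9.72 for Ndc80, 8.49 for Kif11 and 8.31 for Rrm2. At the other end it was 1.54 for Mcm6, 1.62 for Mcm7, 1.76 for Pcna, 1.82 for Cdt1, 1.89 for Mcm3 and 1.92 for Cdc20.

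The order of the populations is shown by 3 genes. Mki67 (chr7:135689784-135716361, GRCm38) had 2.70 ± 0.674 CPM in SSCs (mean ± SD, n = 2 here and below), 4.65 ± 4.0 in BCSPs and 4.92 ± 1.81 in pBCSPs. It had 19.7 ± 3.53 in HEC, 23.5 ± 1.52 in 6C3, 32.3 ± 16.1 in PCPs, 32.4 ± 8.56 in BLSPs and 40.8 ± 6.49 in THY. The step between the stem and progenitor populations and HEC exceeded the spread of the replicates, whereas the SDs of neighbours within each of these groups mostly overlapped. Top2a (chr11:98992943-99024189), the topoisomerase that untangles sister chromosomes, kept nearly the same order, from 9.37 ± 2.36 CPM in SSCs through 16.3 ± 3.93 in pBCSPs, 17.2 ± 1.21 in BCSPs, 30.9 ± 1.76 in HEC, 41.4 ± 10.5 in 6C3, 51.9 ± 6.43 in BLSPs and 63.2 ± 28.1 in PCPs to 70.4 ± 7.14 in THY. For Pcna (chr2:132249162-132253314) the order turned, from 65.2 ± 4.14 CPM in BLSPs through 67.2 ± 17.6 in PCPs, 75.1 ± 3.60 in HEC, 82.8 ± 5.34 in 6C3, 84.8 ± 20.3 in THY and 110 ± 18.1 in pBCSPs to 112 ± 3.45 in SSCs and 115 ± 23.3 in BCSPs. The last 3 populations did not differ beyond their spread.

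Set against the 10 downstream libraries, the 6 stem and progenitor libraries had lower mRNA of 33 of the 40 members and higher mRNA of 1, at an adjusted p under 0.05 in edgeR. Of all 20060 genes tested, 28.3% were lower and 23.1% higher. The median log2 fold change was -1.06 over the members, -0.55 over the 15 S phase genes, -1.32 over the 25 mitosis genes and -0.11 over all genes. For 15 members every stem and progenitor library was below every downstream library, as for 1749 of the 20060 genes. The 1 mitosis gene that did not pass was Cdc20.

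Among the 12 licensing and fork genes 6 were lower, 1 was higher and the median was -0.40. Mcm2 (chr6:88883474-88898780), a subunit of the helicase, had 13.0, 20.4 and 27.7 CPM (lowest, median and highest) in the 6 stem and progenitor libraries and 35.1, 54.6 and 76.3 CPM in the 10 downstream libraries. These ranges do not overlap, and the log2 fold change was -1.45 ± 0.17 (SE; edgeR adjusted p = 3.89e-06). The other subunits of the same ring had differences of smaller size, with -0.84 ± 0.14 for Mcm4 (edgeR adjusted p = 0.000125), -0.49 ± 0.19 for Mcm5 (edgeR adjusted p = 0.045), and -0.27 for Mcm3, -0.12 for Mcm6 and -0.03 for Mcm7, which did not pass. Cdc6, the loader of the ring, had 1.53, 4.02 and 5.24 CPM in stem and progenitor libraries and 6.51, 7.75 and 13.9 in downstream libraries, again without overlap (-1.32 ± 0.24, edgeR adjusted p = 0.000264), whereas its partner Cdt1 differed by -0.10 and Gmnn by -0.32, and neither passed. Pcna, the 1 member that was higher, had 97.2, 112 and 131 CPM against 54.8, 75.1 and 99.2, so that the ranges met only at their edges (0.59 ± 0.12, edgeR adjusted p = 0.000465).

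All 3 genes of nucleotide supply were lower. Rrm2, the small subunit of ribonucleotide reductase that is made in S phase, had 20.7, 40.3 and 54.4 CPM in the stem and progenitor libraries and 63.3, 113 and 244 in the downstream libraries. The groups did not overlap, and its log2 fold change of -1.72 ± 0.17 (edgeR adjusted p = 6.16e-07) had the largest size among the S phase members. Rrm1, the large subunit, was at -0.55 ± 0.13 and Tyms, thymidylate synthase, at -0.87 ± 0.13.

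In mitosis, all 7 cyclins and kinases were lower, with a median of -1.07. Cdk1 (chr10:69335146-69352938) had 20.8, 28.5 and 44.6 CPM in the stem and progenitor libraries and 30.2, 46.4 and 57.4 in the downstream libraries. Ccnb1 (chr13:100778650-100786570), its cyclin B1 partner, had 13.2, 19.4 and 24.5 against 15.4, 39.2 and 59.5. Both pairs of ranges overlapped, through HEC for Ccnb1, and the changes were -0.61 ± 0.12 (edgeR adjusted p = 0.00068) and -0.91 ± 0.14 (edgeR adjusted p = 4.02e-05). Cyclin A2, encoded by Ccna2, fell further, by 1.80 on the log2 scale. Of the 4 checkpoint and anaphase genes, Bub1 (-1.81 ± 0.19), Bub1b (-1.10 ± 0.20) and Ttk (-1.64 ± 0.37) were lower, whereas Cdc20, the activator of the anaphase-promoting complex, was at 0.12 ± 0.10 (edgeR adjusted p = 0.336), with 31.6, 37.9 and 57.9 CPM against 28.9, 38.2 and 50.7.

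All 5 centromere and kinetochore genes, all 7 spindle and cytokinesis genes and both chromosome structure genes were lower, with medians of -1.05, -1.63 and -2.35. Ndc80, which binds spindle microtubules at the kinetochore, had 1.86, 3.58 and 4.79 CPM against 7.26, 17.4 and 24.1 (-2.25 ± 0.17, edgeR adjusted p = 2.79e-08). Prc1, which bundles the central spindle, had 6.41, 11.5 and 15 CPM against 28.2, 46.6 and 67.1 (-2.10 ± 0.17, edgeR adjusted p = 7.75e-08). Kif11, the motor that separates the spindle poles, had 3.03, 5.28 and 10.8 CPM against 13.3, 22.5 and 30.5 (-2.07 ± 0.17, edgeR adjusted p = 5.47e-08). None of these 3 genes had overlapping ranges. Nusap1, a microtubule-binding protein of the spindle, had 4.0, 7.30 and 9.95 CPM against 14.9, 30.2 and 39.4 (-2.01 ± 0.14, edgeR adjusted p = 1.65e-08). Mki67 had 1.82, 3.41 and 7.48 CPM against 17.2, 25.5 and 45.4, and its change of -2.86 ± 0.28 (edgeR adjusted p = 5.33e-07) was the largest in size of the 40. Top2a had 7.70, 14.9 and 19.1 against 29.7, 48.1 and 83.1 (-1.84 ± 0.17, edgeR adjusted p = 1.88e-07). These groups did not overlap in any of the 3 genes.

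**Figure D2:**
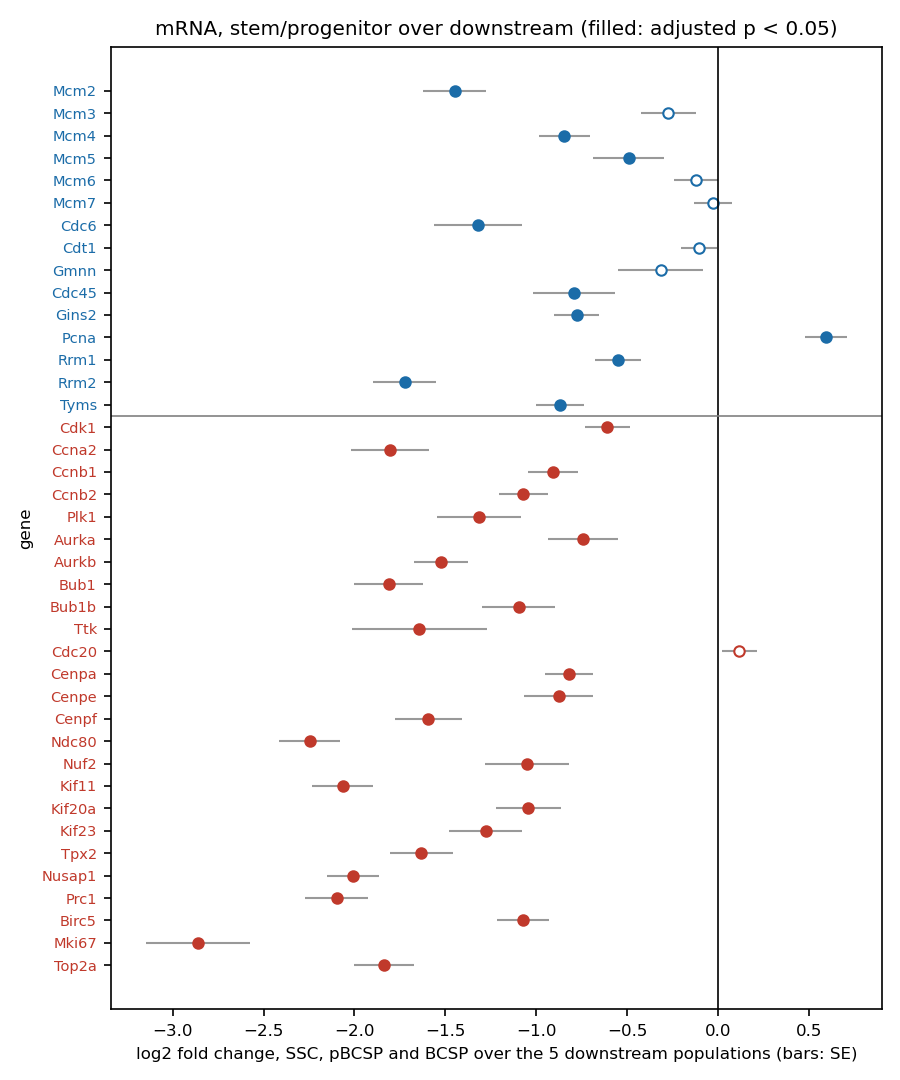
Log2 fold change of mRNA in SSC, pBCSP and BCSP (6 input libraries) against the 5 downstream populations (10 input libraries), 1 point per gene with its SE, grouped by role and filled where the edgeR adjusted p was under 0.05. The points run from -2.86 for Mki67 to 0.59 for Pcna. By its median the licensing and fork group lies nearest to 0, although Mcm2 (-1.45) and Cdc6 (-1.32) lie further away.

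Other genes of the same processes were read from lists of known genes. Of 46 other replication genes 24 were lower and 5 higher in stem and progenitor libraries, with a median of -0.43. The largest falls were in Clspn, a replication checkpoint adaptor (-2.81), Pole, the catalytic subunit of DNA polymerase epsilon (-1.76), and Chaf1b, a chromatin assembly factor (-1.56), and the largest rises in Slbp, which binds histone mRNA (1.11), Rpa2 (0.60) and Rnaseh2a (0.37). Of 80 other mitosis genes measured 57 were lower and 5 higher, with a median of -1.17. Espl1, the separase, was at -2.96, and the kinesins Kif4 and Kif14 were at -2.90 and -2.73, whereas Zwint (1.15), Bub3 (0.86) and Cks2 (0.81) were higher. Of 20 genes of the E2F, DREAM and B-Myb-MuvB regulators 14 were lower and 2 higher, among them the repressors E2f8 (-2.38) and E2f7 (-2.28) and the mitosis gene activator Foxm1 (-2.25) below and Lin52 (1.04) and Tfdp2 (0.86) above.

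Markers of other cells moved with this comparison. Of 10 erythroid markers 9 were lower in stem and progenitor libraries, and their summed level was 1.64 to 6.52 CPM there and 19.7 to 151 CPM downstream. Gata1 and Slc4a1 were at 0 in all 6 stem and progenitor libraries. All 8 chondrocyte markers were higher in them, with sums of 90524 to 108426 CPM against 7839 to 100317. Of 8 osteoblast markers 6 were higher and Col1a1 was lower (-3.66 ± 0.12, edgeR adjusted p = 1.08e-11). Their sums of 7854 to 15291 CPM against 67009 to 147248 followed Col1a1, which had 4129 to 11033 CPM against 65886 to 146307. The sums of endothelial markers were 3.03 to 32.2 against 6.06 to 152, those of leukocyte markers 8.0 to 16.7 against 4.24 to 22.8, and those of muscle markers 0.639 to 4.29 against 2.05 to 11.8. The 5 sort markers Itgav (CD51), Thy1, Enpep (6C3), Eng (CD105) and Cd200 were all detected, with sums of 94.9 to 440 CPM against 195 to 331. The part of other cells in the result was not tested.

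Levels of different genes can be set beside each other only per length. Per kilobase of exon, Pcna had the highest mean of the 40 in stem and progenitor libraries (46.9 CPM per kb, 31.3 downstream), followed by Cdc20 (22.9, 20.9 downstream). Rrm2 went from 13.9 to 46.2 and cyclin B2, encoded by Ccnb2, from 17.2 to 37.5 CPM per kb. Mki67 was near the bottom in stem and progenitor libraries with 0.41 CPM per kb and reached 2.96 downstream, and Ttk was lowest in both with 0.35 and 1.08.

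The S phase and mitosis means moved together over all WT libraries and less so within the stem and progenitor libraries. Pearson's r between the mean log2 CPM of the 15 and of the 25 genes was 0.88 over the 16 WT input libraries, 0.81 over the 10 downstream libraries and 0.44 over the 6 stem and progenitor libraries, which share populations and scaling. The median correlation between pairs of genes was 0.85 among mitosis genes and 0.50 among S phase genes.

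**Figure D3:**
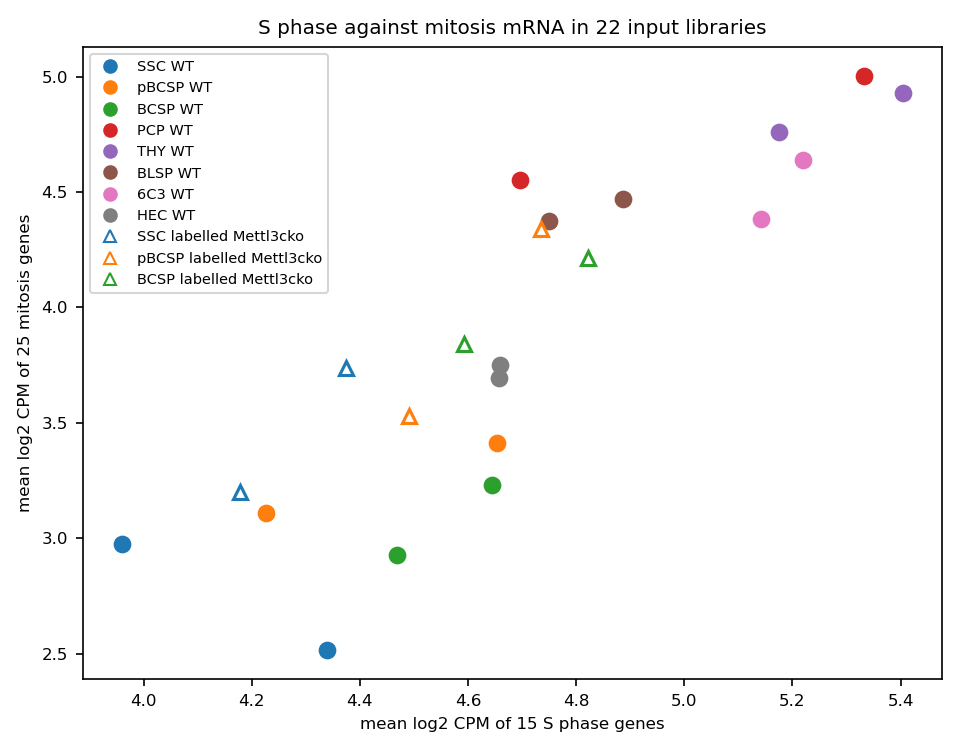
Mean log2 CPM of the 15 S phase genes (horizontal) and of the 25 mitosis genes (vertical) in the 22 input libraries, dots for WT and triangles for libraries labelled Mettl3cko, coloured by population. The WT stem and progenitor libraries lie at the lower left, and the triangles lie above the dots of their own population on the mitosis axis.

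Within the stem and progenitor populations, no member differed at an adjusted p under 0.05 in edgeR. Between SSCs and pBCSPs, 8 members were lower in SSCs at an unadjusted p under 0.05 and 0 higher, against 5.39% and 3.48% of all genes, and DESeq2 called 1, Cdc20, at an adjusted p under 0.05. The 8 were Rrm2, Bub1, Bub1b, Cdc20, Kif11, Tpx2, Nusap1 and Top2a, and 36 of the 40 differences were negative (median -0.40, all genes 0.00). Cdc20 had 31.6 and 37.7 CPM in SSCs and 57.9 and 55.6 in pBCSPs (-0.70 ± 0.19, edgeR adjusted p = 0.133). Nusap1 had 4.0 and 5.93 CPM against 7.90 and 9.95 (-0.84 ± 0.26, edgeR adjusted p = 0.244). Bub1b had 3.43 and 3.00 CPM against 9.93 and 4.06 (-1.11 ± 0.38, edgeR adjusted p = 0.323). In each of these the SSC libraries were both below the pBCSP libraries. Mki67 had 2.22 and 3.17 CPM against 3.64 and 6.20 (-0.86 ± 0.51), Top2a 7.70 and 11.0 against 19.1 and 13.6 (-0.79 ± 0.30), and Mcm2 17.9 and 13.0 against 22.8 and 14.0 (-0.24 ± 0.32). Cdk1 had 20.8 and 26.6 CPM against 30.5 and 22 (-0.13 ± 0.24), Ccnb1 13.2 and 21.6 against 24.5 and 17.7 (-0.27 ± 0.26), and Pcna 110 and 115 against 123 and 97.2 (0.04 ± 0.23). For Cdk1, Ccnb1, Pcna and Mcm2 the groups overlapped. The count of 8 was 5 without SSC WT replicate 1 and 4 without pBCSP WT replicate 1.

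Between pBCSPs and BCSPs, 4 members were higher in pBCSPs (Mcm7, Cdt1, Cdc20 and Ndc80) and 4 lower (Gins2, Tyms, Cdk1 and Birc5) at an unadjusted p under 0.05, against 9.56% and 7.31% of all genes. By DESeq2, Cdc20 and Cdt1 were higher and Gins2 and Tyms lower at an adjusted p under 0.05. Gins2, a subunit of the GINS complex, had 9.24 and 8.30 CPM in pBCSPs and 16.5 and 14.3 in BCSPs (-0.84 ± 0.24, edgeR adjusted p = 0.0905). Tyms had 17.2 and 12.5 CPM against 31.8 and 21.6 (-0.87 ± 0.25, edgeR adjusted p = 0.0958). Cdc20 had 57.9 and 55.6 CPM against 38.2 and 35.8 (0.60 ± 0.19, edgeR adjusted p = 0.123). The groups did not overlap in these 3 genes. Cdk1 had 30.5 and 22 CPM against 44.6 and 30.9 (-0.55 ± 0.24), and Mcm2 22.8 and 14.0 against 27.7 and 24.5 (-0.53 ± 0.32). Mki67 (0.07 ± 0.50; BCSP 7.48 and 1.82 CPM), Top2a (-0.10 ± 0.30; BCSP 18.1 and 16.3), Ccnb1 (0.10 ± 0.26; BCSP 20.3 and 18.5) and Pcna (-0.08 ± 0.23; BCSP 131 and 98.5) overlapped between the populations. Leaving out 1 library moved the count of 4 higher to between 3 and 7 and that of 4 lower to between 1 and 7.

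The IP to input ratio asks how far a transcript was recovered with the m6A antibody. It is given on the log2 scale, as the fold change from input to IP after TMM scaling, where 0 is the level of the typical gene. Over the 8 WT populations the members lay mostly below 0. On average 22 members were lower in IP than in input and 5 higher at an adjusted p under 0.05 in edgeR, against 25.2% and 17.2% of 25365 genes. The median was -0.69 over the members, -0.93 over the S phase genes, -0.32 over the mitosis genes and 0.00 over all genes. With size factors of the kind used by DESeq2, which moved the median of all genes to 0.13, 20 were lower and 7 higher.

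By role, 11 of 15 S phase genes were lower in IP and 1 was higher, with medians of -1.04 for licensing and fork genes and -0.93 for nucleotide supply. Mcm6 had log2 ratios of -2.64, -1.95 and -0.98 (lowest, median and highest of the 16 pairs of IP and input libraries), with an average of -1.87 ± 0.12 (edgeR adjusted p = 1.37e-13). Cdt1 had -2.46, -1.56 and -0.68, with an average of -1.55 ± 0.11 (edgeR adjusted p = 4.01e-13). Both were below 0 in all 16 pairs, as were Mcm3, Mcm4, Mcm7, Rrm1 and Rrm2. Pcna was the 1 S phase gene higher in IP, by little, with -0.02, 0.28 and 0.55 and an average of 0.23 ± 0.09 (edgeR adjusted p = 0.028).

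Mitosis genes lay on both sides, with 11 of 25 lower and 4 higher. All 4 checkpoint and anaphase genes were lower (median -1.36), and the kinetochore and chromosome structure medians were 0.24 and 0.39. Bub1 was among the 4 with an average of -1.11, although its pair ratios had a median of -0.11. They were above 0 in 6 of 16 pairs. Its SSC IP libraries held no count, so this average depends on the prior count. Kif20a, a kinesin of the central spindle, had ratios of -5.00, -2.43 and -0.29 and an average of -2.45 ± 0.32 (edgeR adjusted p = 1.96e-07). Its WT IP counts ran from 3 to 191, and 29.3% of its exon bases overlap another gene, so its average is uncertain. Cdc20 had -3.13, -1.50 and -0.78, with an average of -1.64 ± 0.17 (edgeR adjusted p = 4.17e-09), and Ccnb1 had -1.84, -0.96 and -0.21, with an average of -1.06 ± 0.14 (edgeR adjusted p = 4.14e-07). These 3 were below 0 in all 16 pairs. Ttk, a checkpoint kinase at low counts, ranged from -4.79 to 1.49 around an average of -1.44 ± 0.39 (edgeR adjusted p = 0.00303).

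Ccnb2, the other cyclin B gene of the list, was the member with the highest average. Its ratios were -0.11, 0.92 and 1.41, above 0 in 15 of 16 pairs, with an average of 0.78 ± 0.10 (edgeR adjusted p = 1.64e-07). Cenpf, a large kinetochore protein, had 0.17, 0.70 and 1.23 and an average of 0.69 ± 0.15 (edgeR adjusted p = 0.000271), and was above 0 in all 16 pairs. Birc5, the survivin of the chromosomal passenger complex, had -0.65, 0.71 and 1.13 (average 0.58 ± 0.14, edgeR adjusted p = 0.000898). Mki67 had -0.58, 0.68 and 2.53 (average 0.54 ± 0.16, edgeR adjusted p = 0.00611). Top2a (-0.10, 0.31 and 0.77; average 0.24 ± 0.11, edgeR adjusted p = 0.0688) and Cdk1 (-0.75, 0.27 and 0.50; average 0.07 ± 0.11, edgeR adjusted p = 0.856) did not pass, although Top2a passed with IP and input of a replicate number as a pair (average 0.25).

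**Figure D4:**
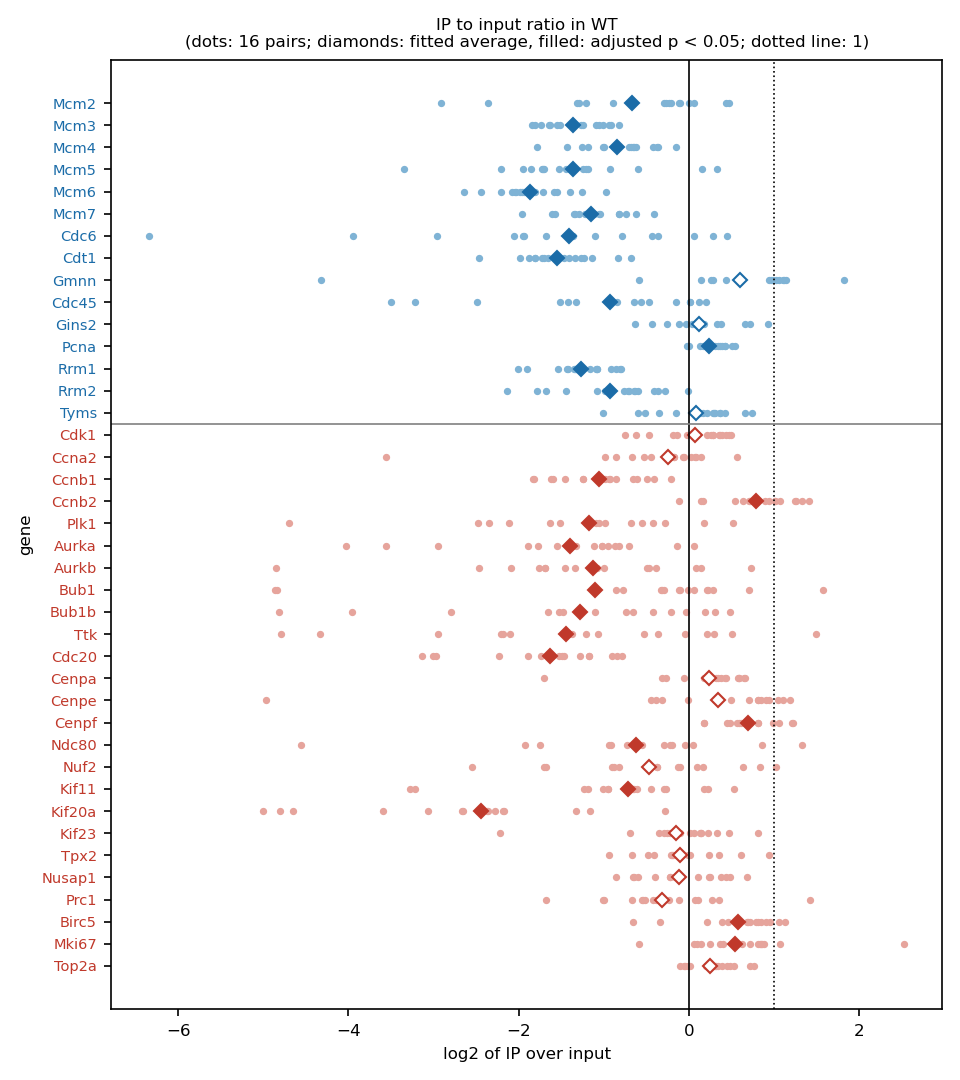
Log2 ratio of IP to input for each gene, with a dot for each of the 16 WT pairs of libraries and a diamond for the fitted average, filled where the edgeR adjusted p was under 0.05. The dotted line marks a log2 ratio of 1, which no fitted average reached, and the averages run from -2.45 for Kif20a to 0.78 for Ccnb2.

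By the study's threshold for an m6A-tagged gene, a log2 fold change above 1 at an unadjusted p under 0.05 within a population, few members were tagged. In SSCs 0 members were tagged, against 10.4% of all genes, in BCSPs 0 against 6.67%, in THY 0 against 12.4% and in BLSPs 0 against 12.4%. At an unadjusted p under 0.05 alone, 0, 0, 4 and 5 members were higher in IP in these populations by edgeR, and DESeq2 tagged 0, 0, 1 and 1. The shares of all genes by these rules are not given here, so these counts stand without a comparison. Birc5 was tagged in pBCSPs (1.01, against 12% of all genes), and Ccnb2 in PCPs (1.13, against 10.6%), 6C3 (1.16, against 14.5%) and HEC (1.15, against 13.5%), where Cenpe, a kinetochore motor, was tagged too (1.15). In THY and BLSPs Ccnb2 stood at 1.00, at the threshold, and in SSCs, pBCSPs and BCSPs at 0.69, 0.10 and 0.51. The tags rested on single libraries in all populations but HEC, which kept 2 under each leave-out. The tag was lost in pBCSPs without input replicate 2, in PCPs without input replicate 1 or IP replicate 2, and in 6C3 without input replicate 2. Counts reached 3 in SSCs without IP replicate 1, 3 in pBCSPs without IP replicate 2, 2 in BCSPs without IP replicate 2, 2 in PCPs without IP replicate 1, 1 in THY without IP replicate 2, 2 in BLSPs without IP replicate 1 and 4 in 6C3 without IP replicate 2. Of Ccnb2, the pair ratios were -0.11 to 0.72 in the 6 stem and progenitor pairs and 0.71 to 1.41 in the 10 downstream pairs.

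The ratio differed among the 8 populations at an adjusted p under 0.05 for 1 member, Bub1 (edgeR adjusted p = 0.00483), against 0.485% of all genes. Between stem and progenitor and downstream populations 3 members were lower, against 1.77% of all genes, and 0 were higher by edgeR or by DESeq2, with 3 higher at an unadjusted p under 0.05. Mcm2 had pair ratios of -2.91 and -1.21 in SSCs, -2.36 and -1.29 in pBCSPs, -1.31 and -0.89 in BCSPs and -0.30 to 0.47 in the 10 downstream pairs, without overlap (difference -1.41 ± 0.27, edgeR adjusted p = 0.0017). Bub1b had ratios of -4.81 to -0.04 against -1.65 to 0.49, with overlap (-1.79 ± 0.44, edgeR adjusted p = 0.0137). Its IP counts were low in SSCs (9 and 39) and BCSPs (5 and 8), on which the difference rests. In pBCSPs they were 107 and 158, and the ratios of -1.52 and -0.04 lay within the downstream range. Bub1 had IP counts of 0 and 0 in SSCs, beside input counts of 54 and 54, 68 and 72 in pBCSPs and 99 and 249 in BCSPs. Its ratios were -0.86 and -0.31 in pBCSPs, 0.23 and 1.58 in BCSPs and -0.78 to 0.71 downstream, so that its fitted difference (-2.60 ± 0.56, edgeR adjusted p = 0.00569) rests on the SSC libraries at 0, depends on the prior count and is no bound. The differences were 0.42 ± 0.33 for Mki67, 0.40 ± 0.22 for Top2a, 0.58 ± 0.23 for Cdk1, 0.07 ± 0.30 for Ccnb1 and 0.09 ± 0.18 for Pcna, none of which passed. The count across the 8 populations was 4 without SSC WT replicate 1, 2 without SSC WT replicate 2 or either replicate of pBCSP or PCP, and 4 with IP and input of a replicate number as a pair.

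Features of the transcripts correlated weakly with the ratio. Over the 40 members Spearman's rho of the average ratio was -0.13 with the length of the longest internal exon, 0.08 with transcript length, 0.07 with GGACT letters per kilobase, the core of the m6A motif, and 0.03 with the mean input level. The median member transcript had 3028.5 bases, a longest internal exon of 224.5 bases and 1.02 GGACT per kilobase, beside 2631 bases, 192 bases and 1.01 over 21901 protein-coding genes. The longest internal exon of Mki67 has 6836 bases.

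The comparison of libraries labelled Mettl3cko with WT asks whether loss of the m6A writer Mettl3 goes with other levels of cell cycle mRNA in SSCs and progenitors. The targeted gene does not check the labels. Mettl3 had input counts of 454 and 449 in WT and 486 and 593 in Mettl3cko SSCs, 369 and 526 against 759 and 741 in pBCSPs, and 571 and 618 against 458 and 607 in BCSPs. Its average log2 fold change was 0.25 ± 0.15 (edgeR adjusted p = 0.362). The count is over the whole gene, including exons outside the deleted part, and the label field for genotype reads wild type for all 44 libraries. The genotype therefore rests on the sample titles and on the column names of the counts, which read KO for the same libraries. The libraries are named by their label below. For its knockout mice the study reported Mettl3 loss by qRT-PCR and, in SSCs, by Western blot. It also reported lower m6A by dot blot in stem and progenitor cells, and in its m6A profiles of SSCs, pBCSPs and BCSPs.

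In the libraries labelled Mettl3cko part of the mitosis mRNAs were higher than in WT, and no S phase gene passed the average test in edgeR. The summed mitosis level was 512 and 350 CPM in Mettl3cko against 197 and 274 in WT SSCs, 735 and 414 against 366 and 289 in pBCSPs, and 627 and 463 against 337 and 266 in BCSPs, so that both Mettl3cko libraries were above both WT libraries in each population. Replicate 1 was above replicate 2 in all 3 pairs of Mettl3cko libraries. The summed S phase level was 487 and 456 against 476 and 428 CPM in SSCs, 671 and 533 against 572 and 452 in pBCSPs, and 647 and 525 against 525 and 506 in BCSPs. Averaged over the 3 populations, 10 members were higher at an adjusted p under 0.05 in edgeR, all of them mitosis genes, against 3.75% of 18655 genes. At an unadjusted p under 0.05 21 were higher, against 10.7% of all genes. By edgeR 0 members were lower at an adjusted p under 0.05, with 1 at an unadjusted p under 0.05 and 0 by DESeq2. The mean change was positive for 24 of 25 mitosis genes (median 0.83) and for 14 of 15 S phase genes (median 0.23), while the median of all genes was -0.05.

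The 10 genes sit in 4 role groups. Among the cyclins and kinases, Ccnb1 had 33.0 and 32 CPM in Mettl3cko against 13.2 and 21.6 in WT SSCs, 60.5 and 49.3 against 24.5 and 17.7 in pBCSPs, and 60.3 and 47.6 against 20.3 and 18.5 in BCSPs. All 6 Mettl3cko libraries were above all 6 WT libraries, with an average log2 fold change of 1.26 ± 0.16 (edgeR adjusted p = 0.00203). Aurkb, the kinase of the chromosomal passenger complex, had 23.7 and 11.9 CPM against 10.1 and 6.86 in SSCs, 34.8 and 13.8 against 9.11 and 5.68 in pBCSPs, and 32.5 and 19.7 against 9.34 and 9.99 in BCSPs. Again no Mettl3cko library was as low as any WT library (1.42 ± 0.28, edgeR adjusted p = 0.0134). Aurka, the kinase of the spindle poles, had 10.7 to 28.2 CPM with a median of 16.5, against 4.40 to 11.2 with a median of 6.94, so that the ranges met at their edges (1.10 ± 0.26, edgeR adjusted p = 0.0256). Cdk1 itself had 36.5 and 26.6 CPM against 20.8 and 26.6, 57.3 and 28.5 against 30.5 and 22, and 56.3 and 35.5 against 44.6 and 30.9 in the same order, and did not pass (0.48 ± 0.21, edgeR adjusted p = 0.201).

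Among spindle genes, Tpx2, which activates Aurora A on the spindle, had 33.1 and 30.3 CPM against 8.71 and 11.0 in SSCs, 52.3 and 27.6 against 22.5 and 9.80 in pBCSPs, and 35.9 and 30.0 against 13.1 and 10.1 in BCSPs. The lowest Mettl3cko value was above the highest WT value, and its average of 1.51 ± 0.23 (edgeR adjusted p = 0.00423) was the largest in size among the members that passed. Prc1 had 16.9 to 34.8 CPM (median 18.8) against 6.41 to 15 (median 11.5), without overlap (0.96 ± 0.24, edgeR adjusted p = 0.0352). Kif11 had 4.81 to 16.1 CPM (median 13.2) against 3.03 to 10.8 (median 5.28), with overlap (1.19 ± 0.28, edgeR adjusted p = 0.0267). Birc5 had 14.8 to 42.9 CPM (median 26.2) against 8.81 to 23.1 (median 12.9), with overlap (1.02 ± 0.24, edgeR adjusted p = 0.026). Nusap1, which was among the most reduced genes in WT stem and progenitor libraries, had 5.08 to 8.58 CPM against 4.0 to 9.95 and an average change of 0.01.

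Nuf2, the partner of Ndc80 at the kinetochore, had 11.4 and 8.72 CPM against 1.88 and 2.83 in SSCs, 14.8 and 8.09 against 5.93 and 3.20 in pBCSPs, and 12.3 and 6.92 against 6.98 and 6.51 in BCSPs (1.32 ± 0.28, edgeR adjusted p = 0.0172). The gap was wide in SSCs. In BCSPs the groups overlapped, with 6.92 CPM in Mettl3cko replicate 2 below 6.98 CPM in WT replicate 1. Mki67 had 9.31 and 5.65 CPM against 2.22 and 3.17, 12.3 and 11.1 against 3.64 and 6.20, and 10.4 and 9.54 against 7.48 and 1.82 in the same order (1.28 ± 0.34, edgeR adjusted p = 0.0449). Top2a had 36.7 and 22.5 CPM against 7.70 and 11.0, 51.6 and 15.7 against 19.1 and 13.6, and 42.7 and 30.9 against 18.1 and 16.3 (1.27 ± 0.27, edgeR adjusted p = 0.0177). For Mki67 both Mettl3cko libraries were above both WT libraries in each population, and for Top2a this failed in pBCSPs, where 15.7 lies between the WT values. The levels stayed below those of the downstream WT libraries for Mki67, whose lowest downstream value was 17.2 CPM.

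Of the S phase genes, 0 of 15 passed the average test by edgeR, with 2 higher and 1 lower at an unadjusted p under 0.05, and 1, Rrm2, was higher by DESeq2. Mcm2 had 24.6 and 16.7 CPM against 17.9 and 13.0, 25.5 and 24.9 against 22.8 and 14.0, and 31.6 and 21.4 against 27.7 and 24.5 (0.31 ± 0.18, edgeR adjusted p = 0.356). Pcna had 101 and 120 CPM against 110 and 115, 147 and 101 against 123 and 97.2, and 96.2 and 112 against 131 and 98.5, which overlapped in every population (average change 0.01 ± 0.14). Rrm2 was at 0.41 ± 0.14 (edgeR adjusted p = 0.109), and Gmnn, at -0.89 ± 0.38 (edgeR adjusted p = 0.194), was the S phase gene with a negative average.

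**Figure D5:**
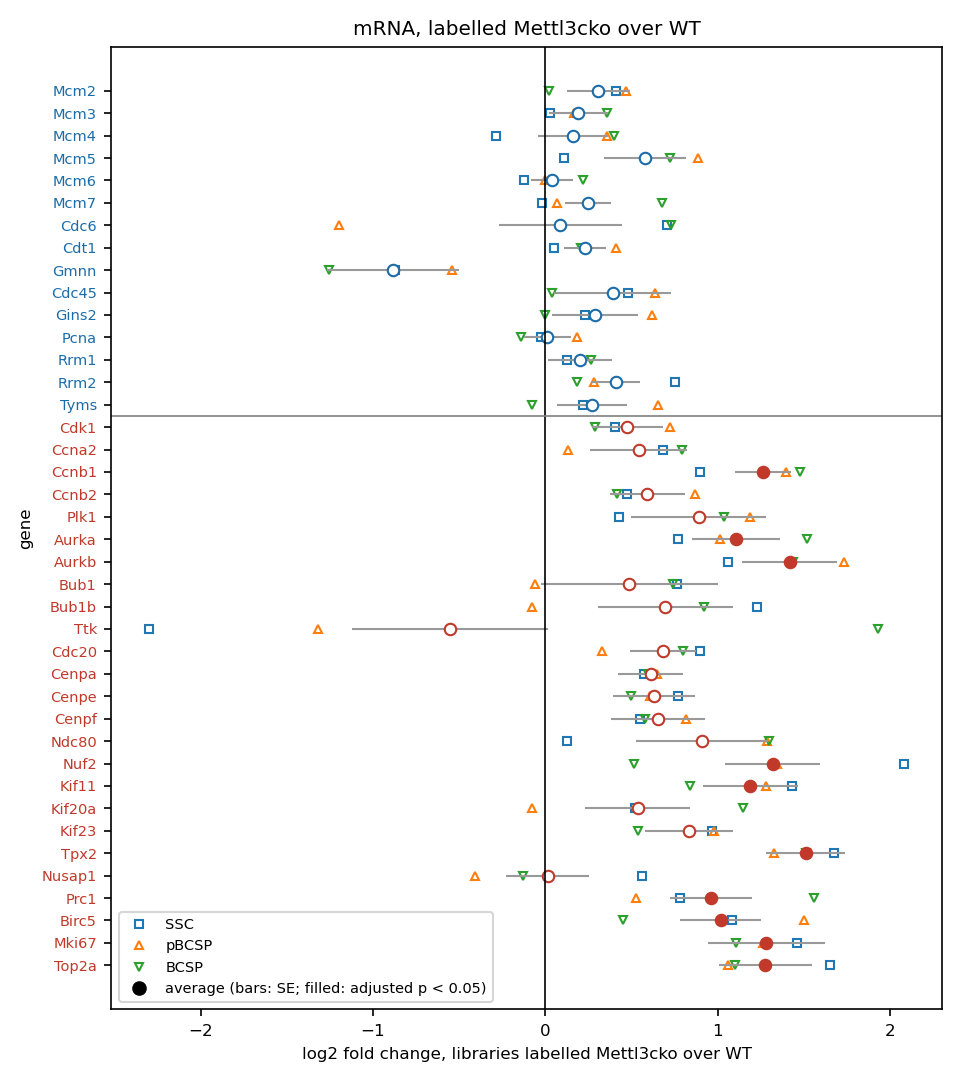
Log2 fold change of mRNA in libraries labelled Mettl3cko against WT for each gene, with a symbol for each of SSC, pBCSP and BCSP (2 input libraries against 2) and a circle with its SE for the average, filled where the edgeR adjusted p was under 0.05. The 10 filled circles, from 0.96 for Prc1 to 1.51 for Tpx2, are all mitosis genes.

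Both Mettl3cko libraries were above both WT libraries in every population for 9 members (Ccnb1, Aurka, Aurkb, Cenpa, Cenpe, Kif11, Tpx2, Prc1 and Mki67), as for 4.14% of all genes. In Ccnb1, Aurkb, Tpx2 and Prc1 all 6 Mettl3cko libraries were above all 6 WT libraries, as in 2.18% of genes. By role, 3 of 7 cyclins and kinases passed the average test (median 0.89), as did 0 of 4 checkpoint and anaphase genes (0.58), 1 of 5 kinetochore genes (0.65), 4 of 7 spindle genes (0.96) and both chromosome structure genes (1.28). For the checkpoint and anaphase genes Cdc20 came nearest (0.68 ± 0.19, edgeR adjusted p = 0.0549). Of 80 other mitosis genes 8 were higher (median 0.48), led by Ckap2 (1.49 ± 0.25), Ckap2l (1.40 ± 0.32) and Cenpn (1.36 ± 0.31), and of 46 other replication genes 0 passed by edgeR (5 higher and 2 lower at an unadjusted p under 0.05, 2 higher by DESeq2, median 0.07). Of the 20 regulators 0 passed by edgeR or by DESeq2 (1 lower at an unadjusted p under 0.05, median 0.09).

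The count of 10 fell to 4 without SSC WT replicate 1 or pBCSP WT replicate 2, to 5 without BCSP Mettl3cko replicate 1, and to 6 without SSC WT replicate 2 or SSC Mettl3cko replicate 1. Erythroid markers also moved with this comparison. Their summed level was 11.7 to 51.9 CPM in the Mettl3cko libraries and 1.64 to 6.52 CPM in WT, and 3 of 7 tested erythroid markers were higher. Most of the sum was haemoglobin mRNA, while Gata1 was at 0 in all 12 libraries and Slc4a1 in 4 of 6 Mettl3cko and 6 of 6 WT libraries. Leukocyte marker sums were 3.56 to 24 CPM against 8.0 to 16.7, endothelial sums 3.88 to 29.0 against 3.03 to 32.2, chondrocyte sums 56413 to 113376 against 90524 to 108426, osteoblast sums 7357 to 21786 against 7854 to 15291, and muscle sums 0.465 to 13.5 against 0.639 to 4.29. Their part in the result was not tested.

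Within single populations no gene passed at an adjusted p under 0.05 in edgeR, so the study's thresholds for a changed gene were used, a log2 fold change beyond 0.5 at an unadjusted p under 0.05. In SSCs 11 members were higher (against 6.96% of all genes) and 0 lower by edgeR or by DESeq2 (against 7.07%). They were led by Nuf2 (2.08 ± 0.45), Tpx2 (1.68 ± 0.26), Top2a (1.65 ± 0.34), Mki67 (1.46 ± 0.49) and Kif11 (1.43 ± 0.55), with Rrm2 (0.75 ± 0.26) as the S phase gene among them, and the median was 0.77 for mitosis and 0.11 for S phase genes. Ccnb1 was at 0.89 ± 0.30, Cdk1 at 0.40, Pcna at -0.03 and Mcm2 at 0.41. Without SSC WT replicate 1 or SSC Mettl3cko replicate 1, 5 were higher, and at an adjusted p under 0.05 DESeq2 called 4.

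In pBCSPs 9 members were higher (against 3.88% of all genes) and 0 lower by edgeR or by DESeq2 (against 4.48%), all 9 of them mitosis genes. They were led by Aurkb (1.73 ± 0.53), Birc5 (1.5 ± 0.40), Ccnb1 (1.39 ± 0.28), Nuf2 (1.34 ± 0.53) and Tpx2 (1.33 ± 0.50). Birc5 had 42.9 and 24.3 CPM against 14.9 and 9.19. Mki67 was at 1.26 ± 0.45, Top2a at 1.06, Cdk1 at 0.72, Pcna at 0.19 and Mcm2 at 0.47. This count rested most on single libraries, with 2 without pBCSP WT replicate 2, 5 without pBCSP WT replicate 1 or pBCSP Mettl3cko replicate 1 and 19 without pBCSP Mettl3cko replicate 2.

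In BCSPs 10 members were higher (against 7.22% of all genes) and 1, Gmnn, was lower (against 5.72%). Prc1 (1.56 ± 0.44), Aurka (1.52 ± 0.51), Tpx2 (1.51 ± 0.30), Ccnb1 (1.48 ± 0.25) and Aurkb (1.44 ± 0.35) led, and Mcm5 (0.72) and Mcm7 (0.67) were the S phase genes among them. Prc1 had 34.8 and 18.9 CPM in Mettl3cko against 6.41 and 11.8 in WT, and Aurka 28.2 and 16.2 against 11.2 and 4.40. Gmnn had 2.2 and 3.55 CPM against 7.73 and 6.03 (-1.26 ± 0.54), and its call was lost without BCSP WT replicate 1, BCSP WT replicate 2 or BCSP Mettl3cko replicate 1. Top2a was at 1.10 ± 0.28, Mki67 at 1.11, Cdk1 at 0.28, Pcna at -0.14 and Mcm2 at 0.02. The count of 10 was 5 without BCSP Mettl3cko replicate 1. Whether the change differed between the 3 populations was tested directly, and 0 members differed at an adjusted p under 0.05 by edgeR or by DESeq2, with 1 (Ttk) at an unadjusted p under 0.05, against 4.50% of all genes.

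The IP to input ratio of libraries labelled Mettl3cko rests on IP libraries that stand apart. In the 6 Mettl3cko IP libraries 32.6% to 41.1% of tested genes had no count, against 6.76% to 24.6% in the WT IP libraries, and replicates correlated at 0.80 to 0.84 against 0.89 to 0.92. In 14 members at least 1 Mettl3cko IP library had 3 or fewer counts, as against 6 members in the WT IP libraries of the same populations. On average 2 members were lower in Mettl3cko at an adjusted p under 0.05 in edgeR, against 3.30% of all genes, and 5 at an unadjusted p under 0.05, against 13.4%. By edgeR and by DESeq2 0 were higher, with 1 at an unadjusted p under 0.05. The median was -0.09 over the members and -0.39 over all genes.

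Plk1, the Polo-like kinase, had IP counts of 0 and 0 in Mettl3cko SSCs, 0 and 2 in pBCSPs and 0 and 0 in BCSPs, against 94 and 5, 103 and 128, and 36 and 101 in WT (edgeR adjusted p = 0.00339). Its fitted change depends on the prior count and is not given. Mcm2 had IP counts of 1 and 2, 173 and 341, and 138 and 228 in the same order, against 48 and 160, 137 and 227, and 350 and 414 in WT (-2.29 ± 0.57, edgeR adjusted p = 0.0296). The low counts were in SSCs, and in pBCSPs the groups overlapped. The other genes did not pass, with 0.29 ± 0.59 for Mki67, -0.30 ± 0.78 for Top2a, 0.12 ± 0.45 for Cdk1, -0.63 ± 0.92 for Ccnb1 and 0.09 ± 0.30 for Pcna. Ccnb1 had pair ratios of -4.11 and -3.02 in Mettl3cko SSCs, -0.20 and -4.82 in pBCSPs and 0.18 and -4.60 in BCSPs, far wider than the -1.82 to -0.41 of the WT pairs. Pcna, with high counts, stayed between -0.27 and 0.98 in Mettl3cko pairs and between -0.02 and 0.51 in WT pairs. The 2 calls became 5 without SSC Mettl3cko replicate 1 and 0 with IP and input of a replicate number as a pair.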

How the data were processed

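SLIM-seq was analysed in 44 libraries. The authors trimmed reads with fastp 0.20.1, aligned them to GRCm38 with HISAT2 2.2.1 and counted them per gene with featureCounts 2.0.1, which gave the deposited table of raw, unscaled counts per gene. The deposited tables of the authors' own SSC comparison hold fold changes and p-values of changed and m6A-tagged genes and were not used. Genotype was taken from the sample titles, and the column names of the counts mark the same libraries KO. Of 46959 entries, 128 named 1-Mar or 2-Mar (at most 0.390% of a library) were left out. Depth was 16480027 to 44046651 counts per library.

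Counts were tested in R 4.3.3 with edgeR 4.0.16 (quasi-likelihood F test, TMM scaling, filterByExpr, Benjamini-Hochberg adjustment over all genes of a fit), limma 3.58.1 and data.table version 1.17.8. Stem against downstream and adjacent populations were contrasts of one fit over the 16 WT input libraries, the IP to input ratio a kind-by-population term over the 32 WT libraries, and Mettl3cko was compared with WT within each population, as an average over the 12 input libraries, and as an interaction over 24 libraries. SEs are the absolute log2 fold change over the square root of F. Ratios of pairs are differences of log2 CPM with a prior count of 2. Positions and exon lengths came from GENCODE vM21, promoters from RefSeq. Scripts were tested on simulated data, and figures were drawn with Python 3.11.15 and matplotlib 3.10.9.

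Alternatives were DESeq2's size factors, library size alone, other filters, a replicate block, DESeq2 1.42.0, single fits, adjusted p thresholds and leaving out libraries. DESeq2 with an adjusted p for Mettl3cko within populations was added after the data were seen. Deviations of IP and input from the group means correlated at 0.02 to 0.24 within conditions. Both came from the same sorted cells per the study's methods, so replicate numbers pair them. The main fits of the ratio and of the tags did not use this pairing, which entered only with the replicate block. Deviations of input libraries correlated at -0.19 to 0.13 between WT populations and at -0.003 to 0.007 between genotypes. The range between populations overlaps that of IP with input, so this check cannot decide whether replicate numbers pair populations. The labels give no pairing between populations or genotypes, and the main fits used none. The members, lists and tests were chosen with earlier results of these data known. All members were counted. Values in every library were given for Mki67, Top2a, Cdk1, Ccnb1, Pcna and Mcm2 and, per comparison, for up to 5 members per direction with the largest change among those past the threshold, or the 3 with the smallest p where fewer than 2 passed. For other lists, at most 3 genes per direction were named.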

Additional observations from a re-analysis of the deposited data

Results flagged for a closer look

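In 3 members the IP to input ratio differed between the stem and progenitor populations and the downstream populations by a test of the difference itself (edgeR's quasi-likelihood test, adjusted p under 0.05). The difference was -2.60 for Bub1, -1.79 for Bub1b and -1.41 for Mcm2 on the log2 scale. Bub1 was also the member whose ratio differed among the 8 WT populations (edgeR adjusted p = 0.00483). For Bub1 the SSC IP libraries held no count, and for Mcm2 all 6 stem and progenitor pairs were below all 10 downstream pairs. For Bub1b the BCSP IP libraries held 5 and 8 counts, and the ratios of the groups overlapped. No group had 4 or more replicates, so no library could be tested as an outlier within its group.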

How the results depend on the processing

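With 2 libraries per group, single libraries decided several counts. The fall in stem and progenitor libraries (33 lower, 1 higher) was the same count under TMM, DESeq2's size factors and library size alone. In the fits of the ratio, IP and input of a replicate were left out together, so 16 leave-outs stand for 32 libraries. The causes of the shifts below were not tested.

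Between SSCs and pBCSPs DESeq2 called 1 member at an adjusted p under 0.05, and between pBCSPs and BCSPs 2 lower and 2 higher. Library size alone gave 5 tags over the 8 populations. DESeq2 gave 8 members higher in the average ratio, 3 differing across populations (no filter 4, replicate block 4), 6 lower in stem and progenitor libraries and 4 in the Mettl3cko ratio (replicate block 0). At an adjusted p under 0.05 the higher members in Mettl3cko SSCs, pBCSPs and BCSPs were 0, 0 and 0 by edgeR and 4, 1 and 5 by DESeq2. No filter gave 16 in pBCSPs, and one fit over 12 libraries gave 1 lower in SSCs. The lower call of Gmnn in BCSPs became 0 with library size alone, no filter, the replicate block, DESeq2, one fit and an adjusted p. The average Mettl3cko count of 10 was 11 with the replicate block, 14 by DESeq2 and 15 with no filter. The replicate block moved no other count of members by over 1.5 times.

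The sign turned for Pcna between SSCs and pBCSPs with library size alone (-0.0467), for Ccnb1 in the ratio of stem and progenitor against downstream with DESeq2's size factors (-0.10), no filter (-0.0745) and DESeq2 (-0.10), for Pcna there (-0.0802, -0.0569 and -0.0802), and for Mcm2 in Mettl3cko BCSPs with the replicate block (-0.00381).

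Leaving out 1 replicate moved the counts of members as follows. At an unadjusted p, SSC against pBCSP gave 4 to 12 lower, and pBCSP against BCSP 3 to 7 higher and 1 to 7 lower (0 to 1 lower at an adjusted p). Tags were 2 to 5 and the ratio across populations 1 to 4. Higher members in Mettl3cko were 5 to 15 in SSCs, 2 to 19 in pBCSPs, 5 to 13 in BCSPs (0 to 1 lower) and 4 to 14 on average, and lower ratios 1 to 5. Signs turned within these ranges of log2 values. In the average ratio Cdk1 was -0.0180 to 0.16, and between stem and progenitor and downstream ratios Ccnb1 was -0.18 to 0.25 and Pcna -0.0880 to 0.15. In the Mettl3cko ratio Cdk1 was -0.22 to 0.32, Mki67 -0.19 to 0.52, Pcna -0.22 to 0.27 and Top2a -1.87 to 0.0712. In Mettl3cko mRNA Pcna was -0.0876 to 0.0927 on average, -0.18 to 0.12 in SSCs, -0.12 to 0.42 in pBCSPs and -0.34 to 0.0790 in BCSPs, Top2a was -0.0471 to 1.66 in pBCSPs, and in BCSPs Cdk1 was -0.0935 to 0.58 and Mcm2 -0.30 to 0.28. Between SSCs and pBCSPs Ccnb1 was -0.68 to 0.0566, Cdk1 -0.35 to 0.10, Mcm2 -0.55 to 0.13 and Pcna -0.12 to 0.20, and between pBCSPs and BCSPs Ccnb1 was -0.13 to 0.33, Mki67 -0.61 to 1.42, Pcna -0.27 to 0.14 and Top2a -0.35 to 0.15.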
